A study of Mus musculus with 16 samples.

Results

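The genes described here encode HSP90 proteins, heat shock factors and co-chaperones of HSP70 and HSP90. They are the 10 genes Hsp90aa1, Hsp90ab1, Hsp90b1, Trap1, Hsf1, Hsf2, Bag3, Stip1, Ahsa1 and Cdc37, chosen by name from the 49164 genes with counts. Each symbol stood for 1 identifier, and all 10 passed the filter on low counts, with 466 to 148843 counts per library. The study asked which genes move when wild type B16-F10 cells meet 1 of 4 monoclonal antibodies for 24 hours. B16-F10 is a mouse melanoma line that makes pigment and grows in culture. The study's title calls the antibodies decoys that block extracellular HSP70. Polyadenylated RNA was sequenced with the antibody Mel321-31 (n = 4), Mel322-34 (n = 4), Mel321-35 (n = 3) or the isotype control MGO.53 (n = 4). All samples are of 1 line, and the labels say only that replicates are biological, so the tests measure no more than the variation among these cultures, which may be technical.

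HSP90 is an abundant dimeric chaperone that uses ATP to fold and hold signalling proteins, among them many kinases and steroid receptors. Unfolded clients reach it from HSP70 through adaptor proteins, and co-chaperones set the pace of its ATP cycle. HSP90 and HSP70 also restrain HSF1, which on release binds heat shock elements in DNA and turns on chaperone genes, so that these transcripts are a usual readout of protein folding stress. Some melanoma cells depend on HSP90 for oncogenic kinases such as mutant BRAF. Whether B16-F10 cells do was not tested.

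Library totals ran from 19446531 to 37957845 counts. The summed level of 7 melanocyte genes (Pmel, Tyr, Tyrp1, Dct, Mlana, Mitf and Sox10) was 29295 to 30560 CPM, where CPM is counts per 1000000 counts. Of 4 leukocyte markers, Cd68 had 354 to 627 counts per library and Lyz2 43 to 88, while Ptprc and Cd3e had at most 3. That list summed to 16.6 to 21.3 CPM with MGO.53, 16.0 to 16.5 CPM with Mel321-31, 16.9 to 19.0 CPM with Mel322-34 and 16.4 to 19.9 CPM with Mel321-35 in batch 1. Of 3 fibroblast markers, Col1a1 had 48 to 137 counts, Pdgfra 12 to 49 and Dcn 0 to 8, and they summed to 2.98 to 5.32 CPM over all libraries. Of the endothelial pair, Pecam1 had 0 to 8 counts, with 4 libraries at 0, and Cdh5 had 0 in all 15, as did the epithelial gene Epcam. The summed level of 6 epithelial markers, nearly all from Krt8, Krt18 and Msln, was 12.5 to 22.8 CPM with MGO.53, 3.95 to 7.64 CPM with Mel321-31, 5.90 to 16.8 CPM with Mel322-34 and 8.17 to 14.5 CPM for Mel321-35 within batch 1. It was 0.0766 CPM in Mel321-35 replicate 1, which the labels place alone in batch 2. That library stands apart and was kept out of the tests, so Mel321-35 entered them with n = 2. MGO.53 libraries also tended to be shallower, at 19446531 to 33529927 counts against 26179567 to 37957845 in the batch 1 antibody libraries. These ranges overlap. Mitochondrial transcripts made up 1.95 to 2.47% of counts with MGO.53 and 1.85 to 2.17% with the antibodies in batch 1. The part of these differences in the changes below was not tested.

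Under the isotype control the members spanned a wide range of level per length. Hsp90ab1, the constitutive cytosolic HSP90, stood at 1570.0 ± 13.2 CPM per kilobase of transcript (SD, n = 4), in place 15 among 14610 genes. Hsp90b1, the HSP90 of the endoplasmic reticulum also called GRP94, followed with 476 ± 4.18 CPM per kilobase. Hsp90aa1, the stress-inducible cytosolic form, had 430 ± 11.7 CPM per kilobase. The libraries of these 3 genes did not overlap, so on these principal transcripts the order held in every control library. The order of Hsp90b1 and Hsp90aa1 depends on the length used. Without division by length Hsp90aa1 was the higher, at 1411 against 1344 CPM. On the longest other coding transcripts it was also higher, at 1985 against 1201 CPM per kilobase. Those transcripts are annotated at only 711 and 1119 bases, against 3281 and 2825 for the principal ones. Values from such short lengths say little about the order. Trap1, the mitochondrial HSP90, was far lower at 51.3 ± 1.58 CPM per kilobase.

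Among the co-chaperones, Ahsa1, the activator of the HSP90 ATPase, had 175 ± 3.63 CPM per kilobase and Stip1, the adaptor HOP that joins HSP70 to HSP90, had 143 ± 3.47. Cdc37, which brings kinases to HSP90, had 44.97 ± 2.07 CPM per kilobase on its principal transcript, annotated at 7851 bases. On its other coding transcript of 1144 bases the same counts give 309, so its place in the order is uncertain. Hsf1, the master regulator of the heat shock response, had 44.9 ± 0.763 CPM per kilobase. Bag3, an HSP70 co-chaperone that HSF1 induces and that serves selective autophagy, had 28.03 ± 1.03. Hsf2, a second heat shock factor, was the lowest at 9.43 ± 0.324 CPM per kilobase. Apart from Cdc37, whose libraries overlap those of Hsf1, each neighbouring pair in this order, on principal transcripts, was separated in all 4 control libraries.

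**Figure D1:**
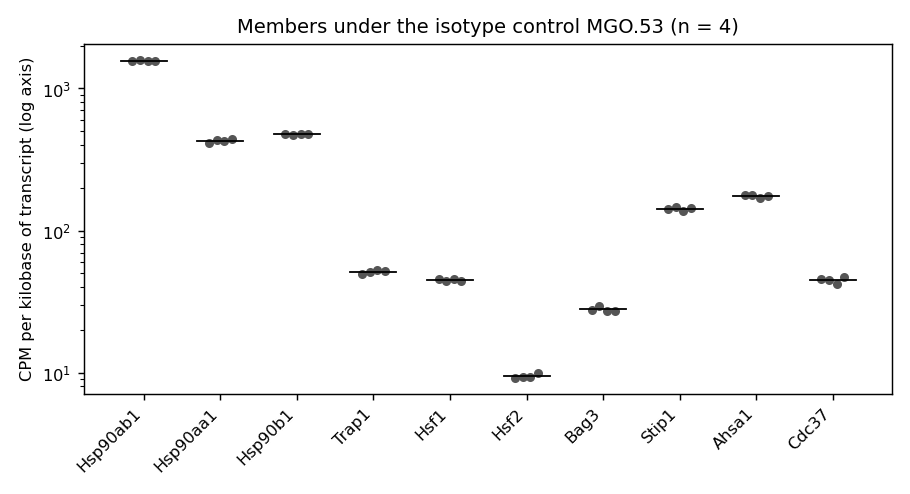
Level of each member in the 4 MGO.53 libraries, in CPM per kilobase of principal transcript on a log axis, with a point for each library and a line at the mean. Hsp90ab1 stands highest at 1570.0 and Hsf2 lowest at 9.43, and the spread within a gene is small beside the distance between most genes.

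The cytosolic HSP90 genes were not called against MGO.53 with any antibody, and differences between antibodies are given below. Hsp90ab1 had 4029, 3982, 3909 and 3960 CPM in replicates 1 to 4 of Mel321-31, and 3727, 4023, 3796 and 3898 CPM in those of Mel322-34. It had 3783 and 4035 CPM in Mel321-35 replicates 3 and 4 and 3934, 4004, 3932 and 3956 CPM in MGO.53. The groups overlap, and the batch 2 library was the highest of all at 4251 CPM. The differences from MGO.53 were 0.346% with Mel321-31 (95% confidence interval -3.28 to 4.11%), -2.41% with Mel322-34 (-5.94 to 1.25%) and -1.21% with Mel321-35 (-5.57 to 3.36%), and none passed (edgeR adjusted p = 0.950, 0.461 and 0.891). A bulk level cannot tell fewer expressing cells from less RNA per cell.

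Hsp90aa1, the form that heat shock induces, had 1512, 1444, 1443 and 1450 CPM with Mel321-31 and 1346, 1350.4, 1409 and 1417 CPM with Mel322-34. It had 1430.4 and 1470.3 CPM with Mel321-35 in batch 1, 1440 in the batch 2 library, and 1365, 1426, 1399 and 1455 CPM with MGO.53. Each antibody group overlapped the control. The log2 fold changes were 0.051 ± 0.029 (SE), -0.032 ± 0.029 and 0.039 ± 0.035 for Mel321-31, Mel322-34 and Mel321-35, with edgeR adjusted p = 0.364, 0.566 and 0.730. The upper ends of the 95% intervals were 7.87%, 1.88% and 7.98%.

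The balance between the inducible and the constitutive form, which does not depend on scaling between libraries, moved little. For each Hsp90ab1 count there were 0.357 ± 0.00855 Hsp90aa1 counts with MGO.53, 0.368 ± 0.00537 with Mel321-31, 0.358 ± 0.0154 with Mel322-34 (SD, n = 4 each) and 0.364 and 0.378 for Mel321-35 within batch 1. These are ratios of counts, not adjusted for transcript length. The mean log2 ratio differed from that of MGO.53 by 0.046, 0.0041 and 0.058 in the same order of antibodies, with exact two-sided permutation p = 0.0857, 0.914 and 0.267, or 0.257, 0.914 and 0.400 adjusted over the 3 tests. The smallest p possible was 0.0286 for groups of 4 and 0.0667 for Mel321-35, which therefore could not reach 0.05. After adjustment over the 3 tests, a p of 0.0286 with 1 antibody alone could not pass either. With the batch 2 library, whose ratio was 0.339, the Mel321-35 difference was 0.014.

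Hsp90b1, which folds secreted and membrane proteins such as integrins and Toll-like receptors, had the largest positive difference among the HSP90 genes, with Mel321-31. It stood at 1447, 1434, 1437 and 1428 CPM with that antibody and at 1348, 1326, 1351 and 1350.4 CPM with MGO.53, so every Mel321-31 library was above every control. The difference was 6.86% (95% interval 2.56 to 11.3%), a log2 fold change of 0.096 ± 0.029 (SE) that missed the threshold (edgeR unadjusted p = 0.00258, adjusted p = 0.0607). It passed with DESeq2 (0.0292) and limma-voom (0.0453), as it did without Mel321-31 replicate 1 (0.0443), Mel322-34 replicate 1 (0.0373) or replicate 2 (0.0398), or Mel321-35 replicate 3 (0.0471) or replicate 4 (0.0477), in edgeR.

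With Mel322-34 Hsp90b1 had 1295, 1423, 1362 and 1409 CPM, around the control range, a log2 fold change of 0.030 ± 0.029 (adjusted p = 0.600). With Mel321-35 it had 1354 and 1421 CPM, both above the controls, a log2 fold change of 0.046 ± 0.035 (adjusted p = 0.686), and the batch 2 library had 1508 CPM. About 10.3% of the exonic bases of Hsp90b1 overlap 1810014B01Rik on the opposite strand, and although the library kit kept strand, per the labels, the strand setting of the counting step is not stated. Trap1, which guards mitochondrial protein folding, overlapped the control with every antibody. Its levels ran from 110.3 to 124 CPM over the 14 libraries of batch 1, and its log2 fold changes were -0.015 ± 0.040, -0.063 ± 0.040 and -0.025 ± 0.049 (adjusted p = 0.899, 0.377 and 0.9004).

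Hsf1 fell with Mel322-34, by 10.3% (95% interval 5.23 to 15.1% lower). It had 81.6, 84.9, 82.2 and 87.4 CPM in the Mel322-34 libraries against 95.4, 92.3, 94.5 and 92.2 CPM in the MGO.53 libraries. The groups did not overlap, and the log2 fold change was -0.16 ± 0.039 (SE, n = 4 each, edgeR adjusted p = 0.0146). With Mel321-31 it had 91.2, 89.5, 87.1 and 87.3 CPM, also below every control, a log2 fold change of -0.077 ± 0.038 that did not pass (adjusted p = 0.292). With Mel321-35 it had 84.7 and 82.2 CPM, and the batch 2 library was the lowest of all 15 at 81.1 CPM. That log2 fold change was -0.17 ± 0.048 (n = 2 with Mel321-35), as large as with Mel322-34. It did not pass in edgeR (unadjusted p = 0.00166, adjusted p = 0.192), while DESeq2 called it (adjusted p = 0.0334). All 3 comparisons use the same 4 control libraries and so are not independent of each other.

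The Hsf1 call with Mel322-34 was lost without Mel322-34 replicate 3 (-0.15, adjusted p = 0.0615) and when the trend of levels on transcript length was removed, which left a log2 fold change of -0.12 (adjusted p = 0.0637). Across 10170 genes the log2 fold change with Mel322-34 rose with transcript length (Spearman 0.517 across genes, which are not independent replicates). The same correlation was 0.376 with Mel321-31 and 0.114 with Mel321-35. The principal Hsf1 transcript, at 2084 bases, is shorter than the median of 3092.

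Bag3, the HSF1-induced partner of HSP70, was the other member to fall with Mel322-34. It had 65.1, 60.5, 64.0 and 68.8 CPM against 71.2, 75.7, 70.2 and 70.1 CPM with MGO.53, with no overlap. The difference was -10.0% (95% interval -15.7 to -3.93%), a log2 fold change of -0.15 ± 0.046 (edgeR adjusted p = 0.0432). The unadjusted edgeR p of Bag3 was 0.00260, near the 0.00258 of Hsp90b1 with Mel321-31. That value missed the threshold after adjustment over the genes of its own comparison, so the 2 calls differ while the unadjusted p hardly do. With Mel321-31 Bag3 had 63.8, 67.2, 66.9 and 68.9 CPM, a log2 fold change of -0.10 ± 0.046 (adjusted p = 0.216). With Mel321-35 it had 64.2 and 68.4 CPM, a log2 fold change of -0.11 ± 0.056 (adjusted p = 0.479), and the batch 2 library had 68.3 CPM.

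All 10 antibody libraries of batch 1 were therefore below all 4 controls for Hsf1 and for Bag3, 2 of the 10 members, a pattern that 1.14% of the genes tested share. No member (0 of 10) was above all controls in all of them, beside 1.38%. The Bag3 call is the weaker of the pair. It was lost without Mel321-31 replicate 2 or 3, Mel322-34 replicate 1, 2 or 3, or any 1 of the 4 MGO.53 libraries, with log2 fold changes from -0.16 to -0.12 and adjusted p from 0.0513 to 0.144, and with the length trend removed (-0.14, adjusted p = 0.0855).

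**Figure D2:**
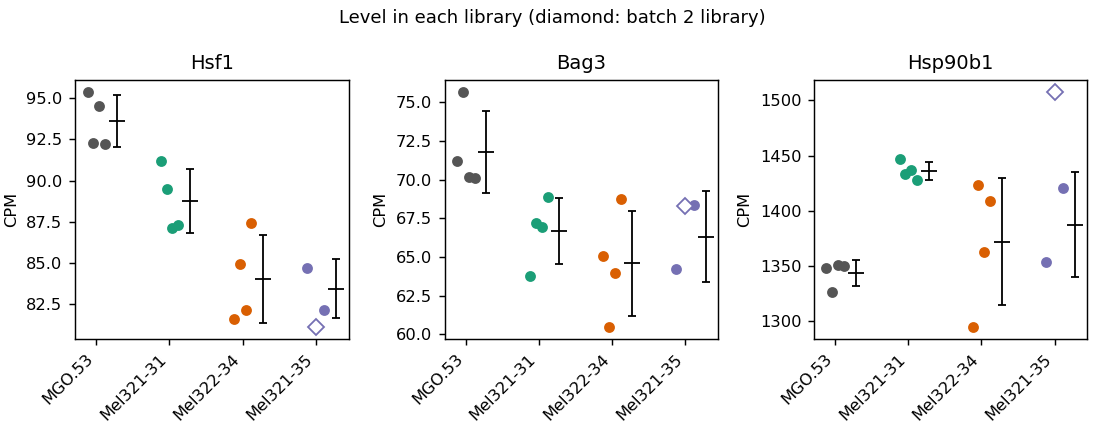
CPM of Hsf1, Bag3 and Hsp90b1 in each library by antibody, with the mean and SD of the batch 1 libraries beside the points, an open diamond for the batch 2 library, and axes that do not start at 0. For Hsf1 every antibody library is at or below 91.2 CPM and every MGO.53 library is at or above 92.2 CPM, and for Bag3 the corresponding values are 68.9 and 70.1.

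Hsf2, which can form trimers with HSF1, varied most among the members with Mel322-34, but not in the other groups. It had 26.8, 25.0, 25.5 and 26.2 CPM with Mel321-31, 23.0, 20.8, 27.7 and 24.4 CPM with Mel322-34, 26.0 in both batch 1 libraries of Mel321-35 and 24.0, 24.1, 24.3 and 25.8 CPM with MGO.53. Its coefficient of variation was 12.1% within Mel322-34, 3.17% within Mel321-31, 3.44% within MGO.53 and 0.098% within Mel321-35 (n = 2). Cdc37 had the highest in those other groups, at 4.19%, 4.60% and 7.21%. No difference from MGO.53 passed (edgeR adjusted p = 0.629, 0.837 and 0.785), and the 95% intervals were wide, from -4.53 to 16.3% with Mel321-31, -11.6 to 7.96% with Mel322-34 and -6.21 to 19.6% with Mel321-35.

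The adaptors and regulators of the HSP90 cycle did not pass with any antibody. Ahsa1 had 231, 226, 225 and 227 CPM with Mel321-31 against 245, 244, 234 and 243 CPM with MGO.53. The groups did not overlap, but the log2 fold change of -0.088 ± 0.038 missed the threshold (edgeR adjusted p = 0.204). With Mel322-34 it had 220.1, 247, 220.3 and 231 CPM, of which replicate 2 exceeds every control, and with Mel321-35 it had 225 and 245 CPM. Their log2 fold changes were -0.073 ± 0.038 and -0.039 ± 0.046 (adjusted p = 0.266 and 0.816).

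Stip1 ranged from 281 to 302 CPM with Mel322-34, 289.7 to 298 CPM with Mel321-31 and 292 to 309 CPM with MGO.53, and the groups overlap. Its log2 fold changes were -0.033 ± 0.033, -0.048 ± 0.033 and 0.0074 ± 0.041 with Mel321-31, Mel322-34 and Mel321-35 (adjusted p = 0.671, 0.429 and 0.971). Cdc37 had 316, 355, 313 and 344 CPM with Mel322-34 against 357, 355, 331 and 370 CPM with MGO.53, also with overlap. Its log2 fold changes were -0.042 ± 0.043, -0.089 ± 0.043 and 0.015 ± 0.053 (adjusted p = 0.676, 0.221 and 0.949). With the length trend removed Cdc37 was called with Mel322-34, at -0.19 (adjusted p = 0.0295). That value rests on the annotated length of 7851 bases.

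**Figure D3:**
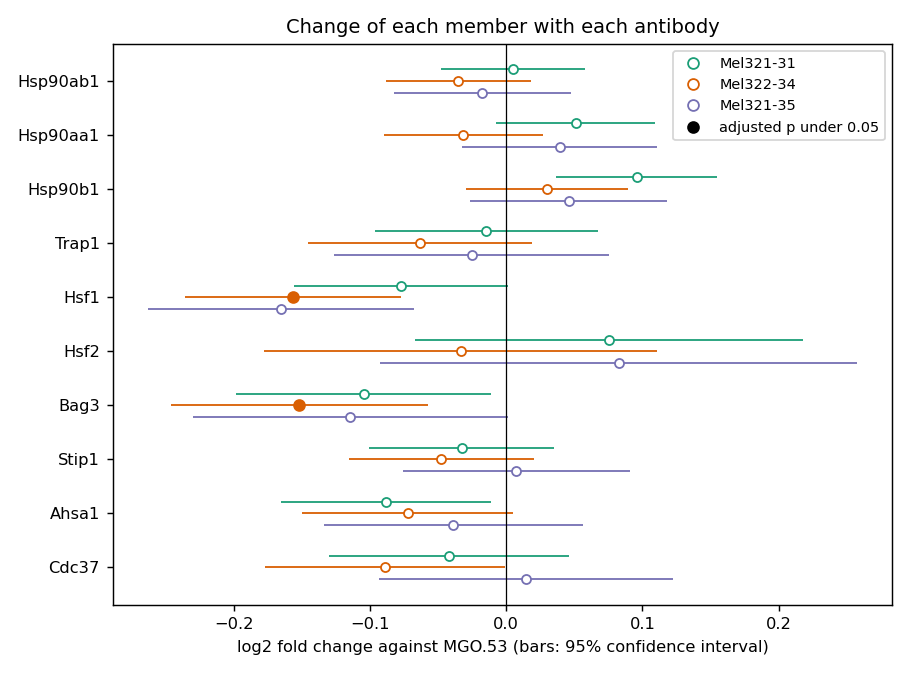
Log2 fold change of each member with each antibody against MGO.53 from the edgeR fit, with 95% confidence intervals as bars, filled points where the adjusted p was under 0.05 and open points elsewhere. Hsf1 at -0.16 and Bag3 at -0.15 with Mel322-34 are the filled points, and every other point is open.

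Counted over the members, 0 rose and 2 fell with Mel322-34, beside 4.03% higher and 2.84% lower among the 14633 genes tested, 6.87% in all. With upper quartile scaling the calls over all genes were 483 higher and 555 lower in place of 589 and 416, while both members still passed. Members without overlap were 0 higher and 2 lower, beside 7.03% and 5.92% of all genes, and 3 members had an unadjusted p under 0.05, beside 22.2%. With Mel321-31 edgeR called 0 of 10, beside 3.53% of all genes (1.41% higher and 2.13% lower), and DESeq2 and limma-voom called 1 each, beside 5.15% and 3.14%. There 3 members had an unadjusted p under 0.05 (edgeR), beside 17.8%, and 1 higher and 3 lower did not overlap, beside 4.61% and 5.38%. With Mel321-35 edgeR called 0 of 10, beside 0.041% of all genes, DESeq2 called 1, beside 0.683%, and limma-voom 0, beside 0.0273%. There 1 member had an unadjusted p under 0.05 (edgeR), beside 10.5%, and 2 higher and 2 lower did not overlap, beside 10.6% and 9.83%. The median log2 fold change over the members was -0.024, -0.056 and -0.0051 for Mel321-31, Mel322-34 and Mel321-35, and over all genes tested it was -0.0014, -0.0011 and -0.0012. The median absolute log2 fold change was smaller among the members than among all genes, at 0.063 against 0.087 with Mel321-31, 0.056 against 0.10 with Mel322-34 and 0.039 against 0.091 with Mel321-35. Most members are expressed far above the typical gene, and that difference was not adjusted for.

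Between the antibodies no member passed. For Mel321-31 against Mel322-34 edgeR, DESeq2 and limma-voom each called 0 of 10, beside 0.0205% of all genes in edgeR, and 3 had an unadjusted p under 0.05, beside 6.96%. The 3 were Hsp90aa1 (0.083 ± 0.029, adjusted p = 0.574), Hsp90b1 (0.066 ± 0.029, adjusted p = 0.674) and Hsf1 (0.079 ± 0.038, adjusted p = 0.714). For Hsp90aa1 and Hsp90b1 every Mel321-31 library was above every Mel322-34 library, 2 of 10 members, beside 1.88% of all genes, and 0 members were lower without overlap, beside 1.91%. For Mel321-31 against Mel321-35 and for Mel322-34 against Mel321-35 the 3 tools each called 0 of 10, beside 0.103% and 0.26% of all genes in edgeR. No member had an unadjusted p under 0.05 in edgeR there (0 of 10 in both), beside 8.06% and 9.61%. The 95% interval of the Hsf1 log2 difference ran from 0.0011 to 0.16 for Mel321-31 against Mel322-34 and from -0.088 to 0.11 for Mel322-34 against Mel321-35. With adjusted p = 0.714 and 0.977, the Hsf1 fall called with Mel322-34 is not shown to differ from the values with the other antibodies.

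The other genes of the pathway are shown by 4 lists that hold none of the members. Of 30 tested genes for further HSP90 co-chaperones, 3 fell with Mel322-34 and 0 rose. They were Stub1, the ubiquitin ligase CHIP that marks clients of HSP70 and HSP90 for degradation (165 ± 5.05 against 188 ± 2.26 CPM, SD, n = 4 each, log2 fold change -0.19 ± 0.041), the phosphatase Ppp5c (-0.13 ± 0.033) and Ruvbl2 (-0.16 ± 0.045), an ATPase of the R2TP complex. Their edgeR adjusted p were 0.00566, 0.0170 and 0.0287. The median over this list was -0.057.

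Among 16 tested HSP70 co-chaperones other than J proteins, 3 fell with Mel322-34 and 0 rose. The nucleotide exchange factor Hspbp1 had -0.17 ± 0.050, Sgta, which hands tail-anchored proteins on for insertion into membranes, had -0.14 ± 0.038, and the mitochondrial exchange factor Grpel1 had -0.14 ± 0.042 (adjusted p = 0.0411, 0.0242 and 0.0465). The Mel322-34 libraries overlapped the controls for Hspbp1 but not for Sgta or Grpel1. Of the 3 tested genes of the HSF family and its regulators, Hsf4 fell, from 32.2 ± 2.55 to 26.7 ± 1.17 CPM (log2 fold change -0.27 ± 0.062, adjusted p = 0.00976). Hsf4 encodes a heat shock factor best known for the lens.

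Of 19 tested HSF1 targets, 1 fell with Mel322-34, the polyubiquitin gene Ubb (-0.14 ± 0.036, adjusted p = 0.0189), and 0 rose, with a list median of 0.0092. These shares stand beside 2.84% of all genes lower and 4.03% higher. The lists overlap, and together they hold 62 different tested genes, of which 8 fell with Mel322-34. That count was 5 (1 higher, 4 lower) with the length trend removed, beside 2.9% of all genes called. It was 2, 5, 5, 4 and 3 without Mel322-34 replicate 3, Mel322-34 replicate 4, MGO.53 replicate 1, MGO.53 replicate 2 and MGO.53 replicate 4, beside 2.24%, 4.82%, 5.15%, 2.72% and 3.46% of all genes.

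With Mel321-31, edgeR and limma-voom called 0 of the 62 related genes and DESeq2 called 1, beside 3.53%, 3.14% and 5.15% of all genes in edgeR, limma-voom and DESeq2. In edgeR 10 of the 62 had an unadjusted p under 0.05, beside 17.8% of all genes. Without Mel321-31 replicate 1 edgeR called 6 (2 higher, 4 lower), beside 8.49% of all genes. The smallest p were those of the folliculin partner Fnip1 (0.15 ± 0.046, adjusted p = 0.0593) and Stub1 (-0.11 ± 0.040, 0.118), the HSP110 family member Hspa4 (0.079 ± 0.030, 0.140) and the import receptor Tomm70a (0.065 ± 0.033, 0.308). From the other lists they were Hsf4 (-0.15 ± 0.062, 0.180), the HSF1-binding protein gene Hsbp1 (-0.048 ± 0.042, 0.604) and the chaperonin genes Hspe1 (0.15 ± 0.053, 0.112) and Hspd1 (0.075 ± 0.028, 0.137).

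With Mel321-35, 1 of the 62 rose, the J protein gene Dnajb4 (31.5 ± 1.87 CPM, n = 2, against 24.1 ± 1.17 CPM, n = 4, log2 fold change 0.39 ± 0.072, edgeR adjusted p = 0.0353), and 0 fell. It was not called by DESeq2, or without Mel321-31 replicate 3 or 4, Mel321-35 replicate 4 or any 1 of the MGO.53 libraries. Values that did not pass were those of the ATPase activator relative Ahsa2 (0.14 ± 0.048, adjusted p = 0.290), Ruvbl2 (-0.13 ± 0.055, 0.400), Sgta (-0.13 ± 0.047, 0.321), Grpel1 (-0.14 ± 0.052, 0.321), Hsf4 (-0.10 ± 0.076, 0.665) and Hsbp1 (-0.055 ± 0.052, 0.745).

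**Figure D4:**
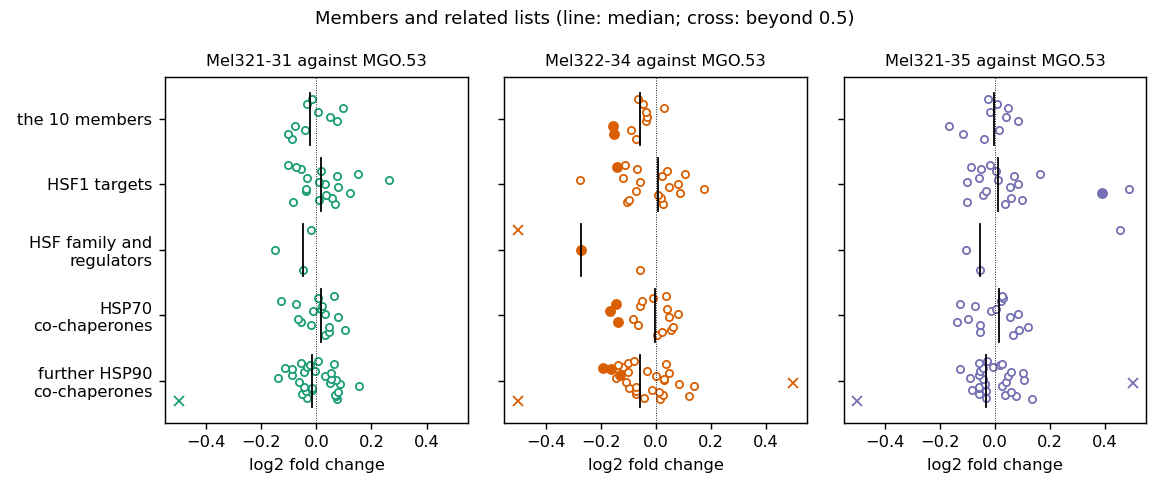
Log2 fold change of each tested gene of the members and of the 4 related lists with each antibody against MGO.53, with filled points where the edgeR adjusted p was under 0.05, a line at each list's median and crosses for values beyond 0.5 in either direction. The filled points with Mel322-34 all lie below 0, and the list medians stay near 0 except that of the 3 tested genes of the HSF family and its regulators, at -0.27 with Mel322-34.

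Heat shock elements are built from inverted repeats of GAA, and the promoters of the members were read for them because HSF1 acts through these letters. RefSeq promoter windows of 300 bases on GRCm38.p6, from 250 before to 50 after the transcription start, matched 7 of the 10 members. Hsp90aa1, Hsp90ab1 and Hsf1 were not matched. The motifs searched were GAANNTTC and TTCNNGAA, each of which reads the same on both strands, and the matches printed do not overlap each other. They were present in 7.86% and 8.52% of all 32851 windows, and 15.1% held at least 1. Among the members 2 of 7 held one, Bag3 with a match that starts 43 bases into the transcript (chr7:128523603-128523632, plus strand) and Cdc37 with a match that starts 170 bases before it (chr9:21150086-21150115, minus strand). The repeats are in capitals in the 30 bases shown for each.
Bag3: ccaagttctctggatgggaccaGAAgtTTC
Cdc37: tcggcgggaacTTCcaGAAggcctcaccac
Of these 2 genes, Bag3 fell with Mel322-34 and Cdc37 did not pass. Hsp90b1, Trap1, Hsf2, Stip1 and Ahsa1 had neither motif in the window. A match describes the letters alone and shows no binding.

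The genes whose levels tracked Hsf1 and Bag3 most closely were found among 10350 genes by the Pearson correlation of log2 CPM over the 14 batch 1 libraries. These libraries share their groups, batch and depth differences, so the values describe likeness and nothing more. For Hsf1 they were the chromatin protein gene L3mbtl2 (r = 0.893), the melanocyte channel gene Trpm1 (0.862) and the mitochondrial ribosomal protein gene Mrps2 (0.852). For Bag3 they were the chromatin architectural gene Hmga1 (0.919), Spsb4 (0.898) and the transcription factor gene E4f1 (0.889). With Mel322-34 the log2 fold changes of the former 3 were -0.14, -0.12 and -0.099, and those of the latter 3 were -0.28, -0.18 and -0.22. L3mbtl2, Trpm1, Hmga1 and E4f1 passed there (edgeR adjusted p = 0.00678, 0.0181, 0.000176 and 0.0433), and Mrps2 and Spsb4 did not (0.146 and 0.0667). Of all genes tested, 6.87% passed there. These genes were picked over the same libraries for likeness to members that fell with Mel322-34. Their falls therefore follow largely from that choice and are no separate support.

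**Figure D5:**
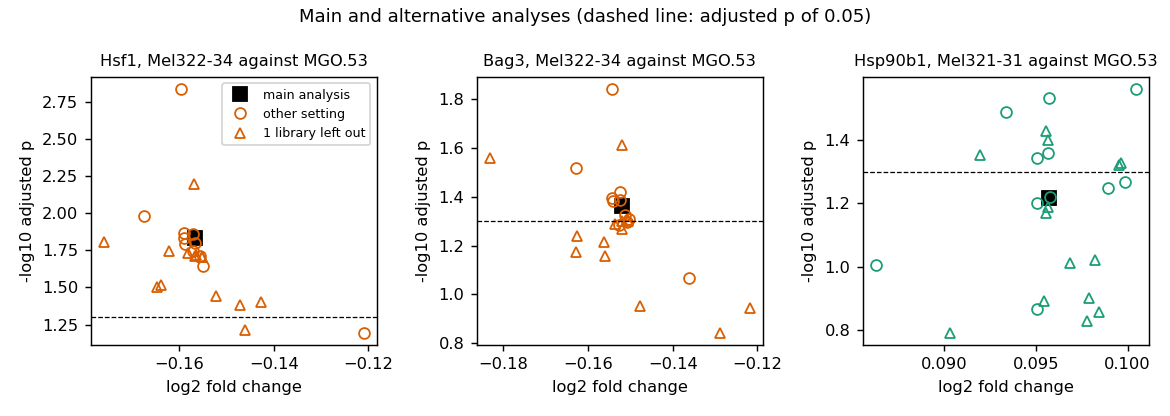
Log2 fold change against -log10 of the adjusted p for Hsf1 and Bag3 with Mel322-34 and for Hsp90b1 with Mel321-31, with a square for the main analysis, circles for other settings, triangles for fits with 1 library left out, and a dashed line at an adjusted p of 0.05. Hsf1 stays above the line in 23 of 25 alternatives, Bag3 in 13 of 25 and Hsp90b1 in 10 of 25, and in all 3 genes the direction is the same throughout.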

How the data were processed

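Alignment and counting tools named in the submitters' processing notes are STAR 2.7.10a and HTSeq 2.01, and DESeq2 is named with no version. No source at hand states the build. Raw counts for 49164 gene identifiers with values were deposited by the authors. A normalised signal, deposited beside them, equalled each count divided by 1 factor per library. Mel321-35 replicate 2 was not analysed here, which left 15 of 16 samples.

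The test was the quasi-likelihood F-test of edgeR 4.0.16 (R 4.3.3) on those counts, scaled by TMM and filtered by group to 14633 genes. A single fit held the 14 libraries of batch 1 and left 10 residual degrees of freedom. Calls needed an adjusted p (Benjamini-Hochberg, all tested genes) under 0.05. The standard error was the absolute log2 fold change divided by the square root of F. The procedure was tested on simulated data. How often it recovers changes as small as those of the members is not reported here. Lengths were those of the principal transcript in GENCODE M21, a reference that may differ from the authors' annotation. The level of the batch 2 library was scaled by TMM over all 15 libraries.

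Alternatives were DESeq2 1.42.0, limma-voom (limma 3.58.1), other scalings and filters, fits of 2 groups alone, batch 2 included with or without its own term, a block for the replicate number, removal of the trend on transcript length, and each library left out in turn. All members are named. From the related lists the text names every called gene, otherwise the 2 with the smallest p per list and comparison, and for each called member the 3 genes of highest correlation (mean log2 CPM 1 or more). The members and lists were chosen with earlier results of these data known. Reads of near-identical gene copies cannot be divided from counts alone.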

Additional observations from a re-analysis of the deposited data

Results flagged for a closer look

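In 3 of 33 groups of 4 libraries 1 library stood apart from the other 3, where chance alone flags about 1 in 20 groups. Hsp90aa1 was 1512 CPM in Mel321-31 replicate 1, against 1443 to 1450 CPM in the other libraries of that antibody. Hsp90b1 was 1326 CPM in MGO.53 replicate 2, against 1348 to 1351 CPM in the other controls. Hsf2 was 25.8 CPM in MGO.53 replicate 4, against 24.0 to 24.3 CPM in the other controls.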

How the results depend on the processing

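With Mel321-31, the count of called members was 1 in place of 0 with DESeq2, limma-voom, 2 groups alone, the replicate block and the length trend removed, each time Hsp90b1, and 0 to 1 with 1 library left out. With Mel322-34 it was 1 in place of 2 with the filter at 10 counts and with both batches without a batch term, where Hsf1 was called and Bag3 lost. It was also 1 with the length trend removed, where Hsf1 and Bag3 were both lost and Cdc37 was called, and 0 to 2 with 1 library left out. With Mel321-35 it was 1 in place of 0 with DESeq2. Related genes called were 1 (DESeq2), 2 (no filter), 2 (2 groups alone), 1 (length trend removed) and 0 to 6 (1 library left out) in place of 0 with Mel321-31. They were 5 (both batches without a batch term), 5 (length trend removed) and 2 to 11 (1 library left out) in place of 8 with Mel322-34. They were 0 with DESeq2, both batches without a batch term and the replicate block, and 0 to 1 with 1 library left out, in place of 1 with Mel321-35. The cause of these shifts was not tested. The log2 HSP90 ratio difference was 0.014 with both batches for Mel321-35 and -0.014 to 0.035 with 1 library left out for Mel322-34.

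Same-numbered replicates showed no strong shared deviation over all genes (correlations from -0.092 to 0.090 over 18 pairs). These values cannot exclude a pairing, and the 2 Mel321-35 libraries deviate in opposite directions by construction. With a block for the replicate number, calls over all genes were 636 in place of 517 with Mel321-31. They were 1209 in place of 1005 with Mel322-34 and 5 in place of 6 with Mel321-35. With the replicate block 2 members were called with Mel322-34, as without it, and Hsp90b1 had adjusted p = 0.0438 with Mel321-31. Hsf1 and Bag3, the members called with Mel322-34, kept their direction in all 25 alternatives run. With Mel321-31 the SE was 0.026 for Hsp90ab1 and 0.070 for Hsf2 on the log2 scale.

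Over all genes, calls differed most from the edgeR count in these settings. With Mel321-31 they were 91 with both batches without a batch term, in place of 517, and 136 to 1238 with 1 library left out. With Mel322-34 they were 424 with the length trend removed, in place of 1005, and 327 to 1451 with 1 library left out. With Mel321-35 they were 100 (DESeq2), 95 (no filter), 14 (filter at 10 counts), 42 (2 groups alone) and 25 (length trend removed), in place of 6, and 0 to 26 with 1 library left out. Between antibodies the settings other than a left-out library gave 2 to 110, 2 to 144 and 16 to 155, in place of 3, 15 and 38, and a left-out library gave 0 to 3, 0 to 45 and 0 to 127, for Mel321-31 against Mel322-34, Mel321-31 against Mel321-35 and Mel322-34 against Mel321-35.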
